A study of Mus musculus with 32 samples.

Results

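The miRNA profile of undifferentiated mouse ES cells (day 0) was read on 2 array platforms, the Affymetrix miRNA array and the Febit Geniom Biochip. The records with the time label day 0 that hold Affymetrix RMA, Affymetrix VSN or Febit VSN values were taken, which gave 6 of the 32 records of the series. The other 2 day 0 records, Febit values without VSN, served as an alternative. They describe 2 of its 8 RNA samples, replicates a and b, which the study calls biological duplicates, and the same RNA was put on both arrays. The cells were the transgenic clone aPIG 44, a D3 line made to carry the construct alpha-MHC-Pac-IRES-EGFP, in which a cardiac promoter drives puromycin resistance and a green fluorescent reporter. They were grown on mouse embryonic fibroblasts with LIF, passed onto gelatin and kept in serum medium before total RNA was extracted. All values therefore come from 1 clone of 1 line, and RNA of remaining feeder cells was not removed by any step that the labels name. RNA for Affymetrix was labelled in the tube with biotin, and RNA for Febit was labelled by enzymatic extension on the chip (MPEA).

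The Affymetrix array held 609 mouse miRNAs and the Febit array 710. After the names had been brought to one form, 608 miRNAs were common to both, 1 was on Affymetrix alone and 102 were on Febit alone. Each array was ranked over the 608 common miRNAs, with rank 1 for the brightest, and the mean rank of a and b was used per platform. VSN values (a log2-like scale that becomes linear near the background) were used on both platforms. A rank orders probe signals. Different probes bind with different strength, so it is no order of molecules in the cell. With 2 arrays a platform, no test between platforms was run, and a difference was set against the spread between a and b.

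miRNAs are short RNAs that guide the silencing of messenger RNAs, mainly through the seed, bases 2 to 8 from the 5′ end. A hairpin precursor is cut into a 5p and a 3p strand, one of which is usually more abundant. In the older names used on these arrays, a star marks the strand thought to be the minor one. In mouse ES cells the miR-290 cluster is the best known source of miRNAs. Several of its 3p strands share a seed with the miR-302 cluster and, shifted by 1 base, with the miR-17 family, and are known to promote the fast cell cycle of ES cells.

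The sequences below are the mature strands on which the comparison turns, as listed by RefSeq for GRCm38.p6, with the seed in capitals. The first set is the miR-290 cluster, which lies at chr7:3218639-3220837 on the plus strand, without miR-292-3p, for which no sequence was found. It is shown because the 5p and 3p strands of its hairpins took very different places.
miR-290-5p: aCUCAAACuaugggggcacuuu
miR-290-3p: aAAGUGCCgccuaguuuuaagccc
miR-291a-5p: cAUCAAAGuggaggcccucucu
miR-291a-3p: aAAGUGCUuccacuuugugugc
miR-292-5p: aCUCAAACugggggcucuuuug
miR-291b-5p: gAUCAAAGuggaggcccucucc
miR-291b-3p: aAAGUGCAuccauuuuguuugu
miR-293: aGUGCCGCagaguuuguagugu
miR-293*: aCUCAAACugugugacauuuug
miR-294: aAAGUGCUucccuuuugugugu
miR-294*: aCUCAAAAuggaggcccuaucu
miR-295: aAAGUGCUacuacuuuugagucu
miR-295*: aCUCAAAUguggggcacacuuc

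The second set shows relatives of the 3p seed. miR-302b and miR-302d lie at chr3:127545275-127545687, miR-17 and miR-20a at chr14:115043684-115044205, miR-20b and miR-106a at chrX:52742159-52742563 (minus strand) and miR-93 at chr5:138165574-138165596 (minus strand).
miR-302b: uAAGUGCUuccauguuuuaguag
miR-302d: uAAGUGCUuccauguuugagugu
miR-17: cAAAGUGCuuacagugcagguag
miR-20a: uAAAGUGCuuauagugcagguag
miR-20b: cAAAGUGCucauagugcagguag
miR-106a: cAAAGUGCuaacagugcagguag
miR-93: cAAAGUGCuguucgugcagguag

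The third set holds miRNAs that were at the top on Febit and lower on Affymetrix. miR-574-5p is encoded at chr5:64970328-64970350, miR-467f at chr11:69635419-69635439 (minus strand), miR-466i at chr13:17747552-17747573 and miR-1187 at chr5:82798964-82798986 (minus strand).
miR-574-5p: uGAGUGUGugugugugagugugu
miR-467f: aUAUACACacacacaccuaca
miR-466i: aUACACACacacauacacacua
miR-1187: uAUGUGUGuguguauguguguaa

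The last set holds miRNAs placed high on Affymetrix and low on Febit, with a close relative of one of them. miR-494 lies at chr12:109715367-109715388, miR-541 at chr12:109742422-109742446, miR-1195 at chr17:70860558-70860580 (minus strand) and miR-107 at chr19:34820700-34820722 (minus strand). miR-103 has a copy at chr2:131288103-131288125 and another at chr11:35782447-35782469.
miR-494: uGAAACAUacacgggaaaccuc
miR-541: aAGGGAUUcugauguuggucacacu
miR-1195: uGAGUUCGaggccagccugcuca
miR-107: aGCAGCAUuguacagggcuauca
miR-103: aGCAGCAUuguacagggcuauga

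The 2 platforms shared a small core at the top of the profile, and most of each top list was not in the other. Of the 30 best mean ranks on Affymetrix and the 30 best on Febit, 9 miRNAs were in both. These were 5 strands of the miR-290 cluster (miR-292-3p, miR-293, miR-290-5p, miR-291a-5p and miR-292-5p), miR-17 and miR-92a of the miR-17-92 cluster, miR-106a of its paralogue on chromosome X, and miR-709. Over all 608 miRNAs the mean ranks of the platforms had a Spearman correlation of 0.43. This is a description across miRNAs, which share their 2 RNA samples and are no independent replicates.

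Affymetrix placed the miRNAs more alike in a and b than Febit did. The ranks of a and b had a Spearman correlation of 0.83 on Affymetrix and of 0.28 on Febit. The median distance between a and b was 48 places on Affymetrix and 131 places on Febit. At the top both platforms repeated well. 28 of the 30 brightest miRNAs of array a were among the 30 brightest of array b on Affymetrix, and 26 of 30 on Febit. Between the platforms, replicate a gave a correlation of 0.34 and replicate b one of 0.37, and each pair of arrays had 10 of 30 miRNAs in common.

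**Figure D1:**
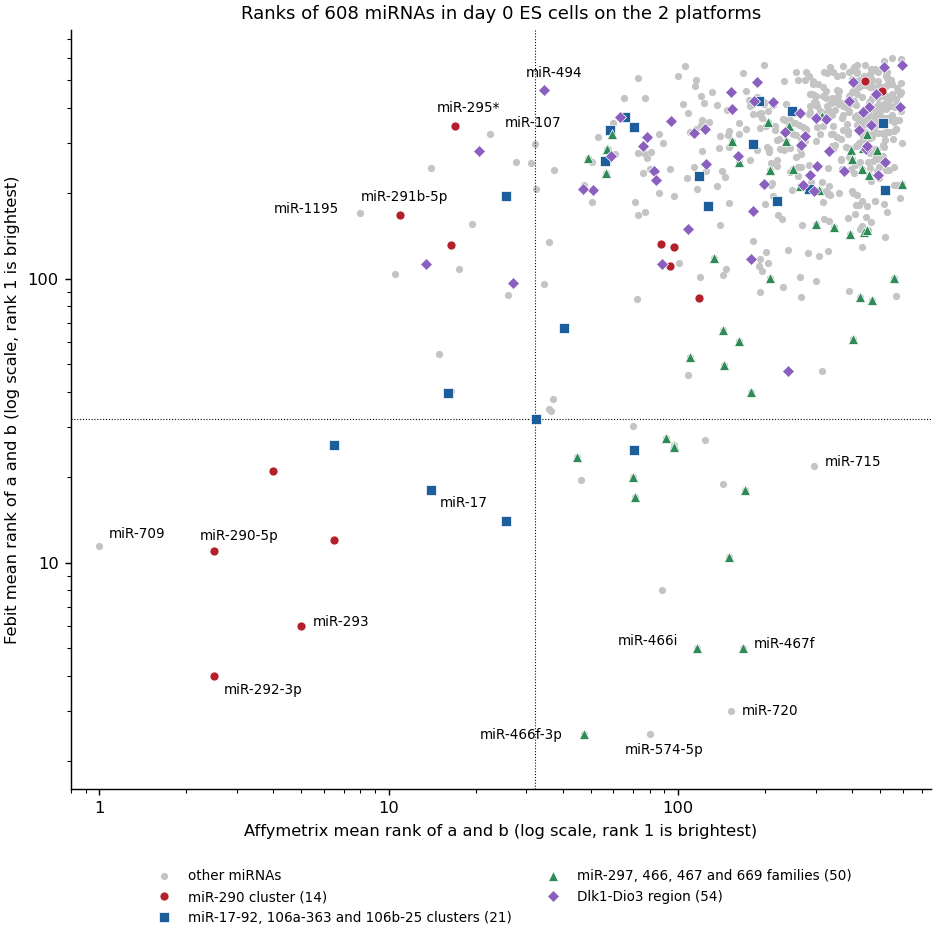
Mean rank of replicates a and b on Affymetrix (horizontal axis) and on Febit (vertical axis), both on log scales, for 608 miRNAs, with dotted lines at rank 32, where both top lists of 30 end. The 5 strands of the miR-290 cluster in both top lists lie in the lower left corner, the miR-466 and miR-467 families lie low and to the right, and miR-494, miR-295* and miR-107 lie high and to the left.

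miR-709, which was first on both Affymetrix arrays, had VSN values of 13.62 (a) and 13.87 (b) there, and 11.58 (a) and 10.89 (b) on Febit, where it was in places 10 and 13. The next 4 places on Affymetrix belonged to the miR-290 cluster. miR-292-3p had Affymetrix values of 12.12 (a) and 12.68 (b), in places 3 and 2, and Febit values of 12.58 (a) and 13.25 (b), in places 6 and 2. miR-293 was in place 5 on both Affymetrix arrays and in places 7 and 5 on Febit. miR-290-5p was in places 2 and 3 on Affymetrix and in places 13 and 9 on Febit. These 4 miRNAs were thus among the first 13 on all 4 arrays. miR-292-5p was in place 4 on both Affymetrix arrays and in places 28 and 14 on Febit.

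The Affymetrix top had a larger median mean rank on Febit than the Febit top had on Affymetrix, but mean ranks are not spread alike on the platforms. The Affymetrix top 30 had a median mean rank of 106.1 on Febit, with 14 of them at 100 or better and 7 beyond 200 (miR-107, miR-295*, miR-541, miR-690, miR-805, miR-1196 and miR-1224). The Febit top 30 had a median mean rank of 70.2 on Affymetrix, with 22 at 100 or better and only miR-715 beyond 200. The counts at 100 or better and the medians have unequal bases. Of all common miRNAs, 59 had a mean rank of 100 or better on Febit and 100 on Affymetrix. Neither these counts nor the medians therefore show that the platforms differ in this respect. The spread between replicates was unequal as well. The Febit top 30 lay 4 places apart between a and b on Affymetrix (median, at most 67), and the Affymetrix top 30 lay 80 places apart between a and b on Febit (median, at most 461.5). The VSN values of the 2 platforms are on separate scales, so their heights are read within each platform. On Affymetrix the VSN value was 7.75 (a) and 8.0 (b) at place 30 and 2.26 (a) and 2.39 (b) at the middle, and on Febit it was 10.29 (a) and 10.04 (b) at place 30 and 6.81 (a) and 6.55 (b) at the middle.

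The other miRNAs among the first 10 on Affymetrix were miR-291a-5p, miR-92a, miR-1195, miR-182 and miR-291b-5p. miR-1195 was in place 8 on both Affymetrix arrays and in places 109 and 232 on Febit. miR-182, which is transcribed with miR-183 and miR-96, had Affymetrix values of 9.17 (a) and 9.56 (b) in places 10 and 11. On Febit its values were 7.29 (a) and 9.99 (b), in places 173 and 34.5. Its 2 Febit places thus lay much further apart than its Affymetrix places. miR-127 and miR-541 from the Dlk1-Dio3 region, miR-23a, miR-23b, miR-24, miR-103, miR-107 and miR-191, which many cell types carry, and miR-20b and miR-93 of the miR-17 family filled much of the rest of the Affymetrix top 30. miR-23a had mean ranks of 15 on Affymetrix and 54.5 on Febit, and miR-805 14 on Affymetrix and 245 on Febit.

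Febit opened with a different set. Its first place by mean rank was shared by miR-466f-3p and miR-574-5p, followed by miR-720, miR-292-3p, miR-466i, miR-467f, miR-293, miR-1187, miR-467b* and miR-290-5p. Only the 3 strands of the miR-290 cluster among these 10 were also among the first 10 on Affymetrix. miR-720, a name given to a sequence that is now known as a fragment of a transfer RNA, was in places 152 and 154 on Affymetrix, and in places 5 and 1 on Febit. Its values were 4.20 (a) and 4.39 (b) on Affymetrix, and 12.81 (a) and 13.45 (b) on Febit. miR-574-5p was in places 74 and 86 on Affymetrix, and in places 2 and 3 on Febit. miR-720 and miR-574-5p thus repeated closely on both platforms, and their places on the platforms did not overlap.

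The miR-290 cluster was near the top on both Affymetrix arrays and on Febit array b, and less so on Febit array a. By mean rank, 8 of its 14 measured strands were in the Affymetrix top 30 and 5 in the Febit top 30. The median rank of the cluster was 16.8 on Affymetrix and 120 on Febit, where the middle place of all 608 miRNAs is 304.5. The Febit values rested on the replicate. The count was 8 on each Affymetrix array, 5 on Febit a and 8 on Febit b, and the median rank was 20 (a) and 13.5 (b) on Affymetrix and 147.5 (a) and 21 (b) on Febit. Within the cluster, miR-292-3p and miR-293 were among the first 7 on all 4 arrays, while miR-294 and miR-295 were not.

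The 2 strands of a hairpin took different places on Affymetrix. Of the 7 hairpins, 5 had the 5p strand well ahead of the 3p strand. miR-290-5p had a mean rank of 2.5 against 118.5 for miR-290-3p, miR-291a-5p one of 6.5 against 94 for miR-291a-3p, and miR-291b-5p one of 11 against 444.5 for miR-291b-3p. miR-294* and miR-295* had mean ranks of 16.5 and 17, and miR-294 and miR-295, which carry the AAGUGCU seed, 87.5 and 97.5. In the hairpin of miR-293 the 3p strand was ahead, with a mean rank of 5 against 507.5 for miR-293*. In that of miR-292 both strands were among the first 4, with 2.5 for the 3p and 4 for the 5p strand.

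On Febit this order did not hold for every hairpin. miR-290-5p (11), miR-291a-5p (12) and miR-291b-5p (167.25) kept a better mean rank than miR-290-3p (85.75), miR-291a-3p (111) and miR-291b-3p (496.75). miR-295* had a mean rank of 345 against 129 for miR-295, and miR-294* and miR-294 had nearly the same, 131 and 132.75. Over the 13 strands with a sequence, the 5p strands had a median rank of 11 on Affymetrix and 131 on Febit, and the 3p strands one of 95.8 on Affymetrix and 120 on Febit. The strand without a sequence, miR-292-3p, had mean ranks of 2.5 on Affymetrix and 4 on Febit and is not in these medians. The share of G and C was between 36.4% and 59.1% in the 7 listed 5p strands and between 31.8% and 50.0% in the 6 listed 3p strands. The 2 strands that were dimmest on both platforms, miR-291b-3p (31.8%) and miR-293* (36.4%), were low in G and C, but so was miR-295 (34.8%). Its part in the ranks was not tested.

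Within the cluster the Febit values of the replicates differed most at miR-294, miR-295 and miR-294*. miR-294 had Affymetrix values of 5.12 (a) and 6.74 (b), and Febit values of 7.01 (a) and 11.34 (b). miR-295 had Affymetrix values of 5.18 (a) and 6.08 (b), and Febit values of 7.07 (a) and 10.80 (b). In raw units the median of the 8 Febit features of miR-294 was 972 in a and 3685 in b, with features from 864 to 1064 in a and from 2953 to 5841 in b. No feature of a thus reached any feature of b. On Affymetrix 11 of the 14 strands of the cluster had a better rank in b and 1 in a, and on Febit 9 had a better rank in b and 5 in a. Of all 608 miRNAs, 311 had a better Affymetrix rank in b and 287 in a. On Febit 268 of all had a better rank in b and 339 in a.

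**Figure D2:**
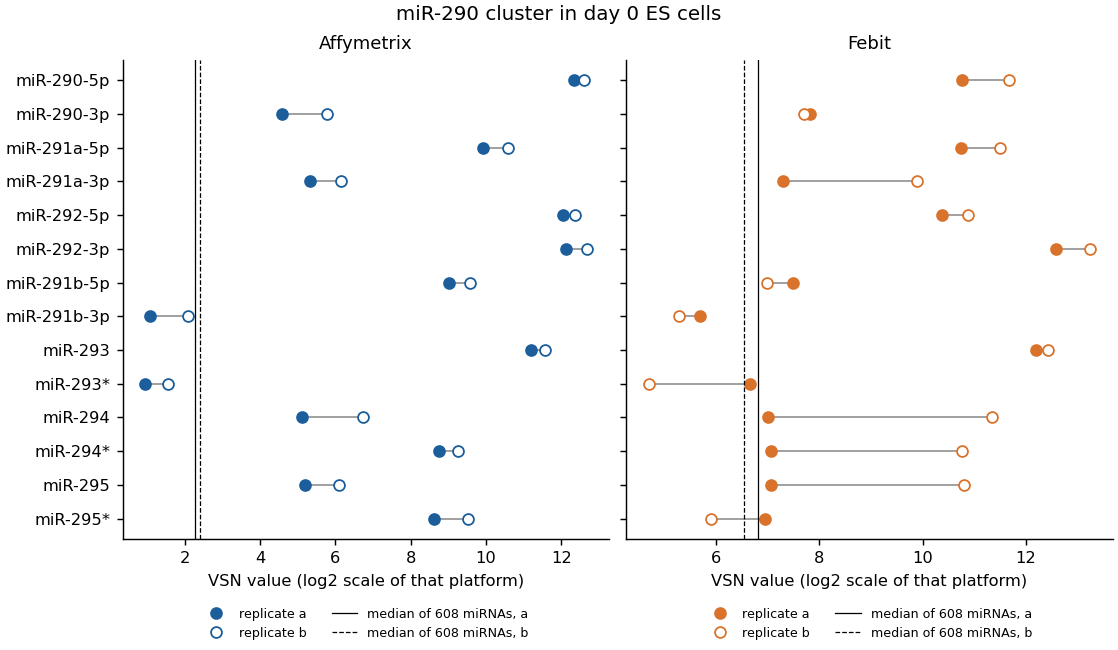
VSN values (log2 scale, not comparable between the panels) of the 14 strands of the miR-290 cluster on Affymetrix (left) and Febit (right), with replicate a filled, replicate b open and black lines at the median of 608 miRNAs on each array. The replicates of miR-294 lie apart on Affymetrix, though less than on Febit. miR-294, miR-294*, miR-295 and miR-291a-3p lie near the median in Febit a and far above it in Febit b.

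miR-295* was the strand of the cluster on which the platforms differed most. Its Affymetrix values were 8.62 (a) and 9.53 (b), in places 22 and 12, and its Febit values were 6.95 (a) and 5.90 (b), in places 274 and 416. A miRNA was counted as ranked higher on a platform where both its arrays lay above both arrays of the other and the mean ranks differed by 150 places or more. Of the 14 strands, miR-295* and miR-291b-5p were ranked higher on Affymetrix and none on Febit. Of all 608 miRNAs, 99 were ranked higher on Affymetrix (16.3%) and 94 on Febit (15.5%). miR-291b-5p differs from miR-291a-5p at 2 positions (C1G and U22C, counted from 1 at the 5′ end, miR-291a-5p first). Affymetrix gave miR-291a-5p and miR-291b-5p mean ranks of 6.5 and 11, and Febit gave them 12 and 167.25.

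The relatives of the cluster were placed as follows. All 8 strands of the miR-302-367 cluster, which is known from primed pluripotent cells and shares the AAGUGCU seed in its miR-302 strands, were far from the top. Their mean ranks ran between 217.5 and 506 on Affymetrix and between 294 and 406 on Febit. None was in either top 30. The best on Affymetrix, miR-302d, had Affymetrix places of 125 (a) and 310 (b) and Febit places of 67 (a) and 601.5 (b), so its replicates spanned most of the Febit scale.

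The miR-17-92 cluster and its paralogues, which promote growth in many cell types, were high on both platforms through a few strands. miR-17 was in places 11 and 17 on Affymetrix and in places 16 and 20 on Febit. miR-106a was in places 23 and 28 on Affymetrix and in places 11 and 17 on Febit, and miR-20a was in places 31 and 34 on Affymetrix and in places 33 and 31 on Febit. For these 3 the platforms lay close together. The Febit place of miR-20a on array a was a dim one, with a raw median of 1104 units against 1981 on array b. miR-92a, which shares its seed with miR-25 and miR-363, was in places 6 and 7 on Affymetrix and in places 24 and 28 on Febit. The miR-106b-25 cluster was placed lower on Febit. Of its 5 strands, 3 (miR-93, miR-106b and miR-106b*) were ranked higher on Affymetrix by the same rule, against 16.3% of all miRNAs. These gaps rested largely on 1 Febit array. miR-93 was in places 27 and 24 on Affymetrix and in places 347.5 and 44 on Febit, so that its gap of 170.25 places was 20 places in replicate b alone. miR-106b* was in place 56 on both Affymetrix arrays and in places 78 and 440 on Febit, so that its gap of 203 places was 22 places in replicate a alone.

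The 6 strands with the AAAGUGC seed (miR-17, miR-20a, miR-20b, miR-93, miR-106a and miR-106b) had a median rank of 25.5 on Affymetrix and 35.8 on Febit. The 5 sequenced strands with the AAGUGCU seed (miR-291a-3p, miR-294, miR-295, miR-302b and miR-302d) had a median rank of 97.5 on Affymetrix and 133 on Febit. This order of medians did not hold for each strand or array. On Febit array b miR-294 and miR-295 were in places 11 and 19, level with miR-106a (17) and miR-17 (20), while on array a they were in places 254.5 and 239. miR-106b was in places 73 and 68 on Affymetrix and in places 544 and 140.5 on Febit.

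By mean rank, miR-15b, miR-16, miR-130a and miR-130b were placed alike or better on Febit, and miR-183, miR-200c and the list of broadly expressed miRNAs better on Affymetrix. In the miR-15 and miR-16 family, miR-16 had mean ranks of 46.5 on Affymetrix and 19.5 on Febit, and miR-15b 36.5 on Affymetrix and 34.2 on Febit. miR-195 went the other way, with a mean rank 170.5 places better on Affymetrix, and the median rank of the list was 171 on Affymetrix and 188 on Febit. miR-130a had mean ranks of 70 on Affymetrix and 30.2 on Febit, and miR-130b 37 on Affymetrix and 37.8 on Febit. Of the 10 broadly expressed miRNAs, 4 were in the Affymetrix top 30 (miR-103, miR-191, miR-24 and miR-107) and none in the Febit top 30, and their median rank was 48 on Affymetrix and 185 on Febit. miR-200c, an epithelial miRNA that holds E-cadherin high, and miR-183 had Affymetrix places between 40 and 61. Their Febit places depended on the replicate. On Febit miR-200c was in places 45.5 (a) and 328.5 (b), and miR-183 in places 41 (a) and 387 (b).

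The rule of 150 places thus set 193 miRNAs apart between the platforms. With any gap, 165 had both Affymetrix arrays above both Febit arrays (27.1%) and 154 had both Febit arrays above both Affymetrix arrays (25.3%). The gap just inside the rule was 150.5 places on the Affymetrix side (miR-205) and 150 on the Febit side (miR-720), and just outside it 149.5 (miR-193b) and 145 (miR-707). The median distance between the mean ranks of the platforms was 114 places. The median distance of a to b was 48 places on Affymetrix and 131 places on Febit. The distances of a to b are between single arrays, while the 114 places are between averages of a and b. They are therefore unlike measures, and do not show whether the platforms differed more or less than the replicates did.

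Among miRNAs with a mean rank of 60 or better on Affymetrix, the widest gap was at miR-494, a miRNA of the imprinted Dlk1-Dio3 region. It had Affymetrix values of 7.41 (a) and 7.95 (b), in places 37 and 32, and Febit values of 5.68 (a) and 5.75 (b), in places 483.5 and 440. miR-295* followed. Next were miR-107, miR-320, miR-17*, miR-1196, miR-125b-5p and miR-541, with mean ranks between 20.5 and 60 on Affymetrix and between 282 and 353 on Febit. For miR-107, miR-17* and miR-1196 the Febit arrays themselves lay far apart. miR-107 was in places 24 and 21 on Affymetrix and in places 553.5 and 92 on Febit, miR-17* in places 57 and 60 on Affymetrix and in places 571.5 and 98 on Febit, and miR-1196 in places 34 and 30 on Affymetrix and in places 510 and 86 on Febit.

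miR-103 and miR-107 share a seed and differ at 1 position (G22C, miR-103 first). Affymetrix placed them side by side, with mean ranks of 16.5 and 22.5, while Febit gave them 40.2 and 323. Raw Febit intensities were 1064 (a) and 1913 (b) for miR-103 and 880 (a) and 1384 (b) for miR-107, so that both were brighter in b. The pair of miR-17 and miR-106a also differs at 1 position (A10U, miR-106a first), and both platforms placed it close together, with 14 and 25.5 on Affymetrix and 18 and 14 on Febit. miR-19a and miR-19b, which differ at U11C (miR-19a first), were apart on both, with mean ranks of 522 and 70.5 on Affymetrix and 206 and 25 on Febit. These pairs were chosen after their values had been seen. Over all 31 pairs of near-identical sequence, made by 34 miRNAs, the median distance within a pair was 47.5 places on Affymetrix and 80 places on Febit, and 14 pairs were closer on Affymetrix, so that the closer placing of miR-103 and miR-107 on Affymetrix was not general.

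In the other direction, 6 miRNAs met the rule with a mean rank of 60 or better on Febit. miR-715 had Affymetrix values of 2.55 (a) and 2.27 (b), in places 264 and 329, and Febit values of 10.62 (a) and 10.12 (b), in places 17 and 27. Its Affymetrix values were close to the array medians of 2.26 (a) and 2.39 (b). miR-706 had mean ranks of 316 on Affymetrix and 47.5 on Febit, and miR-667 240 on Affymetrix and 47.2 on Febit. miR-467f, miR-669f and miR-720 completed the set, with mean ranks between 153 and 170.5 on Affymetrix and between 3 and 18 on Febit.

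**Figure D3:**
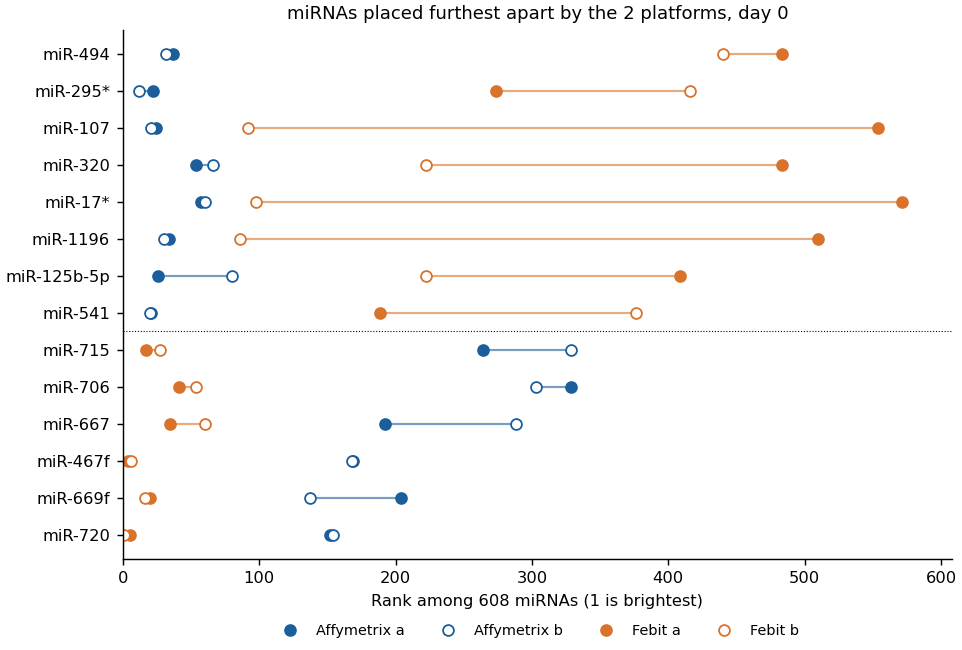
Places among 608 miRNAs (1 is brightest) of the 8 miRNAs with the widest gaps among those ranked higher on Affymetrix (above the dotted line) and of the 6 ranked higher on Febit (below it), with replicate a filled and replicate b open, Affymetrix in blue and Febit in orange. Affymetrix and Febit points never overlap, as the rule requires, and the Febit points of miR-107, miR-17* and miR-1196 span more than 400 places.

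The miR-297, miR-466, miR-467 and miR-669 families, many of which come from 1 large cluster in an intron of Sfmbt2, differed most between the tops of the profiles among the 20 lists. Of their 50 common members, none was in the Affymetrix top 30 and 11 were in the Febit top 30. The median of the mean ranks was 208 on Affymetrix and 150 on Febit. By array it was 203 (a) and 191 (b) on Affymetrix and 180.75 (a) and 69.5 (b) on Febit. By the rule above, 13 members were ranked higher on Febit and 1 (miR-466a-3p) on Affymetrix, against 15.5% and 16.3% of all miRNAs. miR-466f-3p, the best of them, had Affymetrix values of 6.87 (a) and 7.21 (b), in places 46 and 49, and Febit values of 13.63 (a) and 12.50 (b), in places 1 and 4. miR-669c, miR-467a* and miR-467d* had mean ranks of 45, 71 and 70 on Affymetrix, and 23.5, 17 and 20 on Febit.

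Several of the miRNAs at the top of Febit are made of a repeated pair of bases. RefSeq sequences were found for 226 of the 608 miRNAs (37.2%), and since fewer than 80% were matched, no comparison of repeat content over all miRNAs was made. Among the 226, 7 (3.1%) held 1 of the runs UGUGUGUG, GUGUGUGU, ACACACAC or CACACACA, searched on the mature strand (the runs can overlap). Of the 1679 mature miRNAs of the RefSeq table, 0.77% did. The 2 shares cannot be set against each other, since the 226 are no random part of the 608 and 75 of them were matched by hand. miR-574-5p, miR-466i, miR-467f and miR-1187 were 4 of these 7. Their mean ranks ran from 80 to 168.5 on Affymetrix and from 2.5 to 8 on Febit. The longest run was 12 bases in miR-574-5p and miR-467f and 10 bases in miR-466i and miR-1187. The other 3, with a longest run of 8 bases, were less bright on Febit. miR-672 had mean ranks of 26 on Affymetrix and 87.5 on Febit, miR-466k 347 on Affymetrix and 152 on Febit, and miR-467g 399 on Affymetrix and 285 on Febit. Whether the repeats bear on the signal was not tested.

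The Dlk1-Dio3 region, an imprinted locus whose activity is known to vary among mouse pluripotent lines, had more members ranked higher on Affymetrix than on Febit. Of its 54 common members, 3 were in the Affymetrix top 30 (miR-127, miR-541 and miR-409-3p) and none in the Febit top 30. Each top list holds 30 of the 608 common miRNAs, so the Affymetrix count was close to the share of all miRNAs. By the rule above, 15 members were ranked higher on Affymetrix and 5 on Febit, where 16.3% and 15.5% of all miRNAs were. The median rank of the 54 was 224.5 on Affymetrix, on the bright side of the middle place of 304.5, and 295 on Febit, close to it. By array the Febit median was 274 (a) and 314.5 (b), where all 608 miRNAs had 306.5 (a) and 300.5 (b). miR-127 had Affymetrix values of 8.97 (a) and 9.28 (b), in places 13 and 14, and Febit values of 7.62 (a) and 7.52 (b), in places 85 and 140.5. miR-409-3p had mean ranks of 27 on Affymetrix and 96.8 on Febit, miR-433 47 on Affymetrix and 208 on Febit, and miR-376b 88 on Affymetrix and 113 on Febit.

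The raw Febit intensities fell into a large dim group and a small bright one. On array a, 670 of the 710 miRNAs had a median of under 1200 units, none lay between 1200 and 1600, and 40 lay at 1600 or more. On array b, 589 lay under 1200, 17 between 1200 and 1600, and 104 at 1600 or more. Feature values under 1200 were whole multiples of 8 in 100% of cases on both arrays, and feature values of 1600 or more in 13.9% (a) and 27.6% (b). Many miRNAs thus shared a value and a place. A limit of 1400 units, set after these values had been seen, was used to call a miRNA raised.

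Of the 608 common miRNAs, 31 were raised on both Febit arrays (5.1%), 60 on array b alone (9.87%) and none on array a alone. The remaining 517 were raised on neither. Array a thus had 31 raised common miRNAs and array b 91, and later places on an array were those of dim, often tied values. There, a wide difference in place can be a small difference in signal. The median Affymetrix rank was 70 for those raised on both, 124 for those raised on b alone and 351 for those raised on neither. Of the Affymetrix top 30, 10 were raised on both Febit arrays, 12 on b alone and 8 on neither. The miR-297, miR-466, miR-467 and miR-669 families gave 11 of the 31 and 25 of the 60, and the miR-290 cluster gave 5 and 4. No let-7, striated muscle, liver and gut, blood cell, nervous tissue or endothelial miRNA of the lists was raised on either array. Of the 10 fibroblast and smooth muscle miRNAs, 2 were raised on b alone and none on both, against 9.87% and 5.1% of all common miRNAs.

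**Figure D4:**
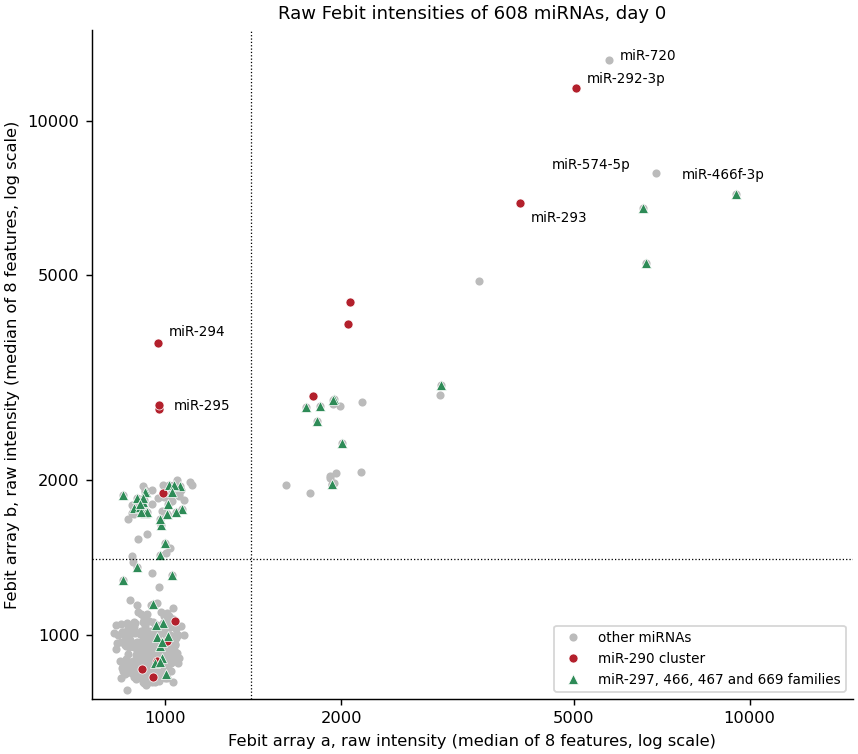
Raw Febit intensity (median of 8 features, log scales) of 608 miRNAs on array a (horizontal axis) and array b (vertical axis), with dotted lines at 1400 units. Most miRNAs form 1 cloud near 900 to 1000 units, 60 lie above the line on b alone, among them miR-294 and miR-295, 31 lie above it on both, and the lower right field is empty.

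miRNAs of other cell types were mostly low. The 7 striated muscle miRNAs had mean ranks between 331 and 484 on Affymetrix and between 198 and 565 on Febit. miR-1 was in places 233 and 516 on Affymetrix and in places 575.5 and 549 on Febit, and miR-208a in places 483 and 342 on Affymetrix and in places 254.5 and 563 on Febit. None of these 8 places was thus better than 233. The 6 nervous tissue miRNAs had a median rank of 533 on Affymetrix and 385 on Febit, with miR-124 as the exception, at mean ranks of 101 on Affymetrix and 114 on Febit. The 5 liver and gut miRNAs had a median rank of 420.5 on Affymetrix and 461 on Febit, the 7 blood cell miRNAs 370.5 on Affymetrix and 362.75 on Febit, and the 2 endothelial miRNAs 395 on Affymetrix and 490 on Febit.

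miRNAs of fibroblasts and smooth muscle, the cell types closest to the feeder layer, were in the middle of the profile and higher on Affymetrix. Their 10 members had a median rank of 166 on Affymetrix and 343 on Febit. miR-145 was in place 77 on both Affymetrix arrays and in places 292.5 and 574 on Febit, miR-143 in places 110 and 153 on Affymetrix and in places 347.5 and 563 on Febit, and miR-31 in places 55 and 107 on Affymetrix and in places 292.5 and 265.5 on Febit. miR-214 was in places 61 and 157 on Affymetrix and in places 41 and 51 on Febit, and was the only member with a better mean rank than 100 on Febit. On Affymetrix 7 of the 10 had a better rank in a and 2 in b, with medians of 118.5 (a) and 216 (b), while on Febit 5 were better in a and 5 in b. Of all 608 miRNAs, 287 were better in a and 311 in b on Affymetrix, and 339 in a and 268 in b on Febit. The miR-290 cluster, with 11 of 14 strands, had the better Affymetrix rank in b, and the part of feeder cells in these values was not tested. In bulk RNA, fewer feeder cells and less of a miRNA per cell cannot be told apart.

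The let-7 family, which rises as ES cells differentiate and is abundant in fibroblasts, was placed higher on Affymetrix as well. Its 9 members had a median rank of 125.5 on Affymetrix and 383 on Febit, and 4 of them were ranked higher on Affymetrix by the rule above (let-7a, let-7c, let-7d and let-7e) and none on Febit, against 16.3% and 15.5% of all miRNAs. let-7e had Affymetrix values of 6.81 (a) and 5.95 (b), in places 49 and 97, and Febit values of 6.32 (a) and 7.34 (b), in places 395.5 and 158. On Affymetrix 7 of the 9 had a better rank in a and 2 in b. On Febit 3 had a better rank in a and 6 in b. Of all 608 miRNAs, 287 were better in a and 311 in b on Affymetrix, and 339 in a and 268 in b on Febit.

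Further miRNAs that the study singles out for other comparisons were in neither top 30 on day 0. miR-501-3p was in places 335.5 and 267 on Affymetrix and in places 49.5 and 146.5 on Febit, and was ranked higher on Febit by the rule. miR-298 was in places 83 and 63 on Affymetrix and in places 239 and 97 on Febit. Its neighbour miR-296-3p had mean ranks of 65 on Affymetrix and 435 on Febit, and the opposite strand miR-296-5p 268 on Affymetrix and 86.5 on Febit, so that the platforms gave the better rank to different strands of 1 hairpin. miR-21 was in places 374 and 326 on Affymetrix and in places 204.5 and 387 on Febit, and its arrays overlapped.

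**Figure D5:**
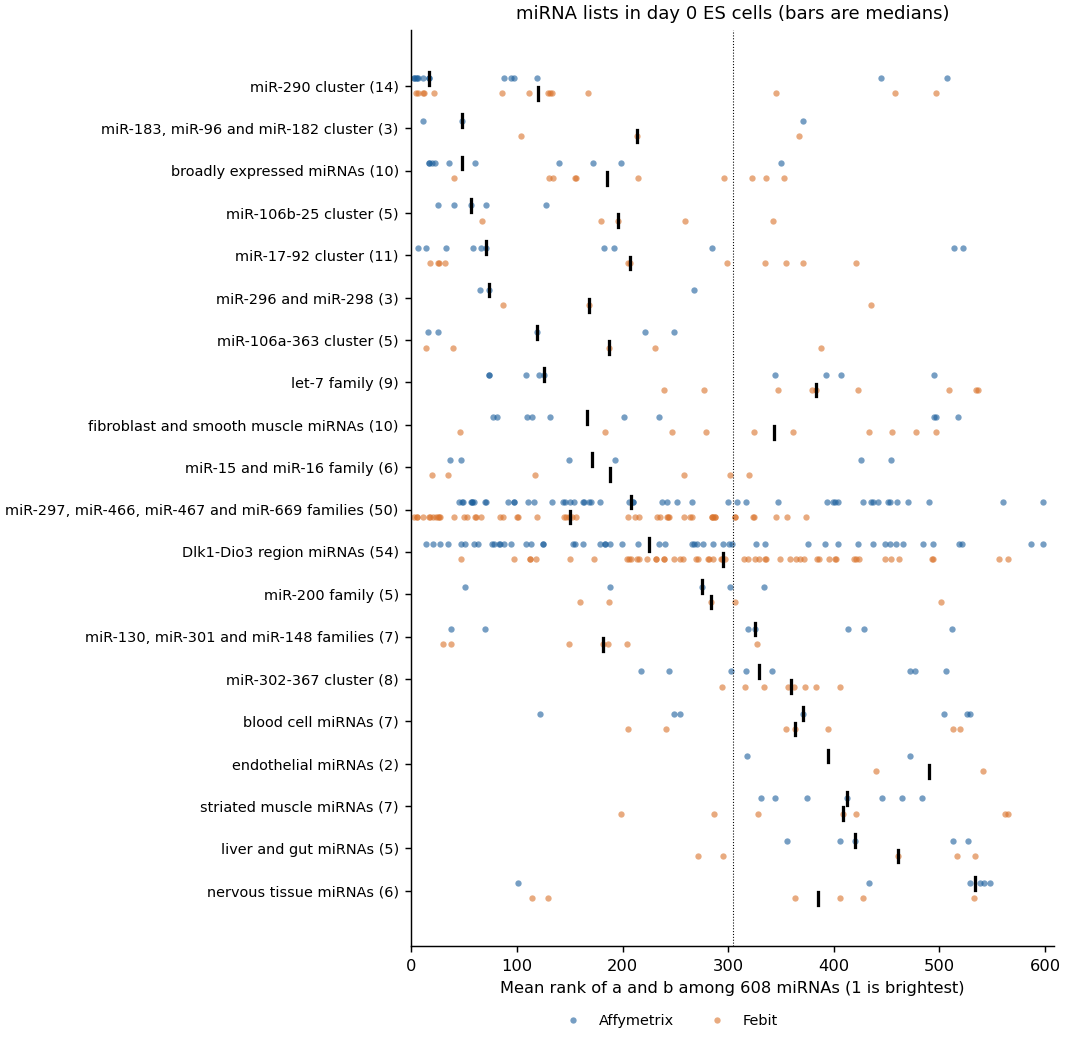
Mean rank of a and b among 608 miRNAs (horizontal axis, 1 is brightest) for the members of 20 lists, with Affymetrix above Febit in each row, black bars at the medians and a dotted line at the middle place. The miR-290 cluster has the best median on both platforms, and the widest gaps with the better median on Affymetrix are at the let-7 family, the fibroblast list and the miR-183, miR-96 and miR-182 cluster.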

How the data were processed

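For Affymetrix the authors deposited log2 values after RMA and after VSN. For Febit the authors deposited log2 values after background correction and VSN, a second set without VSN (quantile normalized), and the raw intensity of 8 features per miRNA. Per the labels, RMA was run with the affy package. Day 0 arrays were assigned by title, and raw columns by day and letter. Names were matched without species prefix, platform suffix and spelling of the star. Ranks (ties averaged) were computed with Python 3.11.15 and pandas 2.3.3, and figures drawn with matplotlib 3.10.9. The ranking code was tested on simulated data. No test was run on 2 arrays a platform, and ranks were compared with the spread between replicates. The number of arrays limits the precision.

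The 20 lists and the rules were chosen with earlier results of these data known. Named singly were the 10 best mean ranks per platform, up to 8 of widest gap in each direction with a mean rank of 60 or better, up to 4 members a list, members that a count turns on, and miRNAs that the study's text names. Any other miRNA was named after its values had been seen. Array names were paired with RefSeq names (GRCm38.p6) directly for 151 miRNAs and by a hand-written list of strands for 75. Alternatives were RMA values, raw and non-VSN Febit values, each replicate alone, a filter on dim miRNAs, and other list sizes and gaps.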

Additional observations from a re-analysis of the deposited data

How the results depend on the processing

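Raw and non-VSN Febit values gave the same ranks as VSN values on both arrays, so every count stayed as it was. With Affymetrix RMA values the top 30 were the same 30 miRNAs, the correlation between platforms was 0.42, and 105 miRNAs were ranked higher on Affymetrix and 91 on Febit (97 and 84 of them shared with the VSN values). For the 104 miRNAs named or eligible by the rules, RMA values moved the gap between platforms by more than the spread between a and b in 4. Its sign turned in miR-208a (-3.75 with VSN, 25.75 with RMA) and miR-141 (5 with VSN, -3 with RMA), neither of which had been counted as ranked apart. Single replicates gave correlations from 0.336 to 0.374, and 131 to 133 miRNAs ranked higher on Affymetrix and 129 to 137 on Febit. Of the 99 ranked higher on Affymetrix with both replicates, 68 were so in a alone and 76 in b alone. Of the 94 ranked higher on Febit, 77 were so in a alone and 74 in b alone. The gap turned sign between replicates in some miRNAs that the rule did not count, such as miR-183 (-10 in a, 343 in b). The number of miR-290 strands in the Febit top 30 was between 5 and 8. Leaving out miRNAs below the middle place on both platforms, which lowers a correlation by construction, gave 0.132, with 92 ranked higher on Affymetrix and 74 on Febit. A top list of 60 shared 23 miRNAs. A gap of 300 places left 19 miRNAs higher on Affymetrix and 19 higher on Febit. No paired analysis was possible because no result comes from a test, and the platforms were compared within each replicate by description alone. Ranks of dim Febit miRNAs are limited by tied values near the background and by 2 arrays.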

Other observations

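Of the 102 miRNAs on Febit alone, 9 were among the 30 best mean ranks of all 710 Febit miRNAs. The same number was raised above 1400 raw units on both arrays, 12 were raised on b alone and none on a alone. Of all 710 Febit miRNAs, 40 were raised on array a and 112 on array b. Of the 608 common miRNAs, 5.1% were raised on both arrays and 9.87% on b alone. The 3 brightest of the whole array were miR-1937a, miR-2142 and miR-1937b. Names of the miR-1937 group are now known as fragments of transfer RNAs. miR-1937a had raw medians of 16896 (a) and 57589 (b), miR-2142 of 25590 (a) and 52520 (b), and miR-1937b of 15200 (a) and 41254 (b). miR-1937c had 3041 (a) and 13655 (b). The other 5 were miR-1895, miR-2137, miR-2138, miR-2135 and miR-2143. The median of the 102 was place 389 of 710, below the middle place of 355.5. miR-699, on Affymetrix alone, was in places 221 and 238 of 609.

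The widest gaps over all ranks were at miRNAs that were at the top of neither platform. miR-34a, a target of p53, was in places 108 and 104 on Affymetrix and in places 528.5 and 593.5 on Febit. miR-216b was in places 541 and 595 on Affymetrix and in places 37.5 and 137 on Febit. The Febit places of both miRNAs lay beyond the 31 raised common miRNAs of array a and the 91 of array b, so among the dim values.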
